A study of Mus musculus with 18 samples.

Results

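Epididymal white adipose tissue (eWAT), the visceral fat pad along the epididymis, was compared between 2 times of day in C57BL/6 mice on a regular light schedule. The 6 libraries compared, of 18 in the series, were chosen by their labels. They are 3 control libraries taken at ZT3, 3 h after lights on, and 3 control libraries taken at ZT12, when the lights went off. Both groups had been kept for 24 weeks with lights on for 12 h and off for 12 h of each day, and no genotype, transgene or drug is named for them. The series also holds eWAT of shiftwork mice at both times (6 libraries), whose light cycle was reversed at the end of every week over the same 24 weeks, and inguinal fat at ZT3, which was not used here. Of 24091 gene symbols counted, 15141 had enough reads to be tested. The labels do not say whether the libraries came from separate animals, so the p-values measure only the spread between these samples, which may be technical. Age is not given in the sources used here.

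Nearly every cell of the body runs a circadian clock in which the proteins BMAL1 and CLOCK switch on their own repressors, the PER and CRY proteins, and a second loop of ROR and REV-ERB receptors sets the level of BMAL1. In white fat this clock is known to time lipid storage, lipid release and the secretion of hormones such as leptin. Fat pads are also populated by macrophages and other immune cells, which present antigen on MHC molecules and answer interferon through STAT transcription factors.

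In 2 of the 3 ZT3 libraries transcripts of another tissue were counted beside those of fat. Levels below are CPM, reads per 1000000 of the TMM-scaled library size. The 6 adipocyte markers (Adipoq, Plin1, Lep, Cfd, Fabp4 and Lipe) summed to 13600, 20100 and 12200 CPM in ZT3 replicates 1 to 3 and to 19600, 18500 and 23700 CPM in ZT12 replicates 1 to 3, so the labelled tissue was present in every library. The 10 vas deferens markers, among them the aldo-keto reductase Akr1b7, summed to 11900, 17.8 and 12400 CPM at ZT3 and to 6.38 to 11.3 CPM at ZT12. The 10 smooth muscle markers followed them, with 10900, 516 and 8230 CPM at ZT3 and 701 to 771 CPM at ZT12. ZT3 replicates 1 and 3 therefore stood apart from the other 4 libraries, and a gene high in both was set aside. The rule took each gene whose level (CPM + 0.5) in each of those 2 libraries was over 2 times that in ZT3 replicate 2 and in every ZT12 library. It set aside 780 of 15141 tested genes. ZT3 replicate 1 was also the deepest library, with 72276733 assigned reads against 20352008 to 22513786 in the other 5, and 3 reads corresponded to 0.0375 to 0.146 CPM. The 13 spermatid markers summed to 5.8, 48.9 and 1.86 CPM at ZT3 and to 30, 3.92 and 10.2 CPM at ZT12. Germ cell transcripts were thus highest in ZT3 replicate 2 among these 6 libraries, though far below the 6780 CPM of ZT3 shiftwork replicate 3. Fits below that keep replicate 2 as the sole ZT3 control are therefore not free of them.

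**Figure D1:**
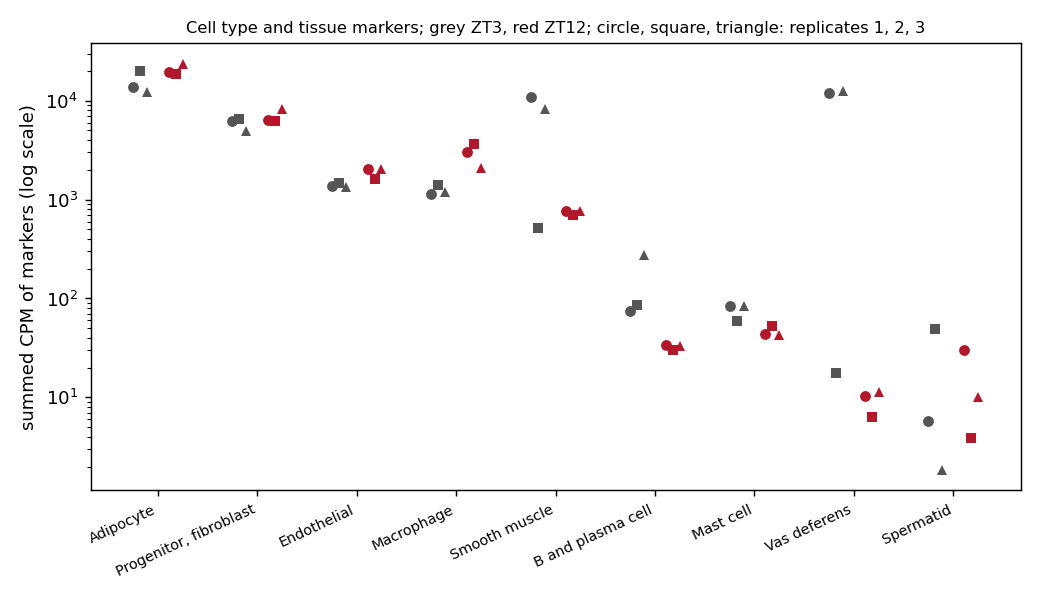
Summed CPM of marker lists (log axis) in each of the 6 control eWAT libraries, with ZT3 in grey and ZT12 in red and replicates 1, 2 and 3 as circles, squares and triangles. The vas deferens and smooth muscle sums of ZT3 replicates 1 and 3 (11900 and 12400 CPM, 10900 and 8230 CPM) lie far above those of the other 4 libraries, and the macrophage sums are higher at ZT12 (2080 to 3650 CPM) than at ZT3 (1150 to 1400 CPM).

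Promoter stretches with known clock and interferon elements are shown for 10 genes, since the results below turn on genes of these pathways. Sequences are from RefSeq (GRCm38.p6), read 5′ to 3′ on the strand of the gene from windows of 300 bases (250 before to 50 after the transcript start), with each match in capitals. Of 36 genes looked up 31 had a window. At least 1 of the 6 searched motifs lay in 15 of these and none in the other 16, among them Irf7, Ifit2, Psmb8, Psmb9, Tap1, H2-Q4, Clock, Npas2, Dbp, Nr1d1 and Nr1d2. Of the matches not shown, Per1, Cry1, Ifit1, H2-Aa and Dio2 held the E-box, the ISRE, a second form of the D-box (TTATGCAA) or the cyclic AMP element (TGACGTCA). The first set holds clock elements: the ROR/REV-ERB element (AA, any base, TAGGTCA) in Arntl, the D-box (TTATGTAA) in Per3 and Timeless, and the E-box (CACGTG) in Tef.
Arntl, chr7:113207528-113207557, plus strand: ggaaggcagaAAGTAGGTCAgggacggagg
Per3, chr4:151044804-151044882, minus strand: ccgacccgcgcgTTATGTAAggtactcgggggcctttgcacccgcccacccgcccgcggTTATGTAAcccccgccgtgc
Timeless, chr10:128237889-128237936, plus strand: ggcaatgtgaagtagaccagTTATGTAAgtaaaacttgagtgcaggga
Tef, chr15:81802526-81802571, plus strand: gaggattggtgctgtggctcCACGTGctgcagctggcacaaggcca
The second set holds the interferon-stimulated response element (ISRE, searched as GAAA, any 2 bases, GAAA), the site bound by STAT2 and IRF factors.
Stat2, chr10:128270256-128270305, plus strand: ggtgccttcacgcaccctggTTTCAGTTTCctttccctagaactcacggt
Ifit3, chr19:34583361-34583428, plus strand: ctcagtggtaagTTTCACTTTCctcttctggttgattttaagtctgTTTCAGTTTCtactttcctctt
Oas1a, chr5:120907527-120907570, minus strand: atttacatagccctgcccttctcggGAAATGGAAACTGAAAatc
Bst2, chr8:71537567-71537622, minus strand: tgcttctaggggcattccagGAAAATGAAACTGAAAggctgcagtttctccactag
B2m, chr2:122147528-122147577, plus strand: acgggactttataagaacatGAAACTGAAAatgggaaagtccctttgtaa
Irgm2, chr11:58214893-58214942, plus strand: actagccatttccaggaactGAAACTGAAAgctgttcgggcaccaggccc
All motifs were searched on both strands, and the 2 ISRE matches in each of Oas1a and Bst2 overlap each other. The Arntl element begins 27 bases after the transcript start, and the Per3 elements begin 205 and 158 bases before it.

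These elements are short, and many promoters hold them by their letters alone. Among all 32851 RefSeq windows 3.44% held the ISRE, 7.15% the E-box, 0.938% the D-box in the form shown and 0.219% the ROR/REV-ERB element. Among tested genes with a window, the ISRE lay in 451 of 11679 (3.86%), in 31 of the 338 that rose at ZT12 (9.17%) and in 1 of the 48 that fell and were not set aside (2.08%). Of 17 interferon response genes with a window 11 held it (64.7%), and of 13 MHC class I genes 4 (30.8%). The E-box lay in 1304 of 11679 tested genes (11.2%), in 23 of the 338 that rose (6.8%) and in 5 of the 48 that fell (10.4%). A match is a description of the letters in the window and not evidence of binding.

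At ZT12, 443 genes were higher and 116 lower than at ZT3 with an adjusted p under 0.05 (edgeR quasi-likelihood test, Benjamini-Hochberg over 15141 genes, n = 3 per group), which is 2.93% and 0.766% of all tested genes, or 3.69% in both directions. Of the 116 lower genes 45 were set aside, which leaves 71 of 14361 (0.494%). None of these 443 and 71 genes had overlapping groups, where 19.3% of all tested genes lay higher and 12% of those not set aside lay lower without overlap. Differences are given as log2 of the ZT12 level over the ZT3 level with the standard error (SE). The genes that rose had a median difference of 1.06, and 250 of them rose more than 2-fold. The genes that fell and were not set aside had a median of -0.92, with 34 beyond 2-fold, beside a median of -0.01 over all tested genes. An unadjusted p under 0.05 was found for 3393 of all tested genes (22.4%, edgeR). DESeq2 called 2168 and limma 539 of 15141, set-aside genes included. The calls depended on single libraries. Without ZT3 control replicate 1, 2 or 3 the test called 173, 1208 and 3 genes, and without ZT12 control replicate 1, 2 or 3 it called 1, 4 and 121. Leaving out a shiftwork library, which changes the genes tested, the scaling and the shared estimate of the spread, gave 276, 423 and 2744 genes for ZT3 replicates 1, 2 and 3 and 396, 144 and 155 for ZT12 replicates 1, 2 and 3. H2-Q4 was the gene still called without ZT12 replicate 1, and Arhgef6, H2-Q4 and Mfge8 were those called without ZT3 replicate 3. Without the 3 ZT3 libraries that held male tract or germ cell transcripts (control replicates 1 and 3 and shiftwork replicate 3), which leaves replicate 2 as the sole ZT3 control, assumed to vary like the other groups, 619 genes were called (268 higher, 1.73%, and 351 lower, 2.27% of 15474 tested), and 185 of them were shared with the 559 in the same direction (33.1% of one list and 29.9% of the other).

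**Figure D2:**
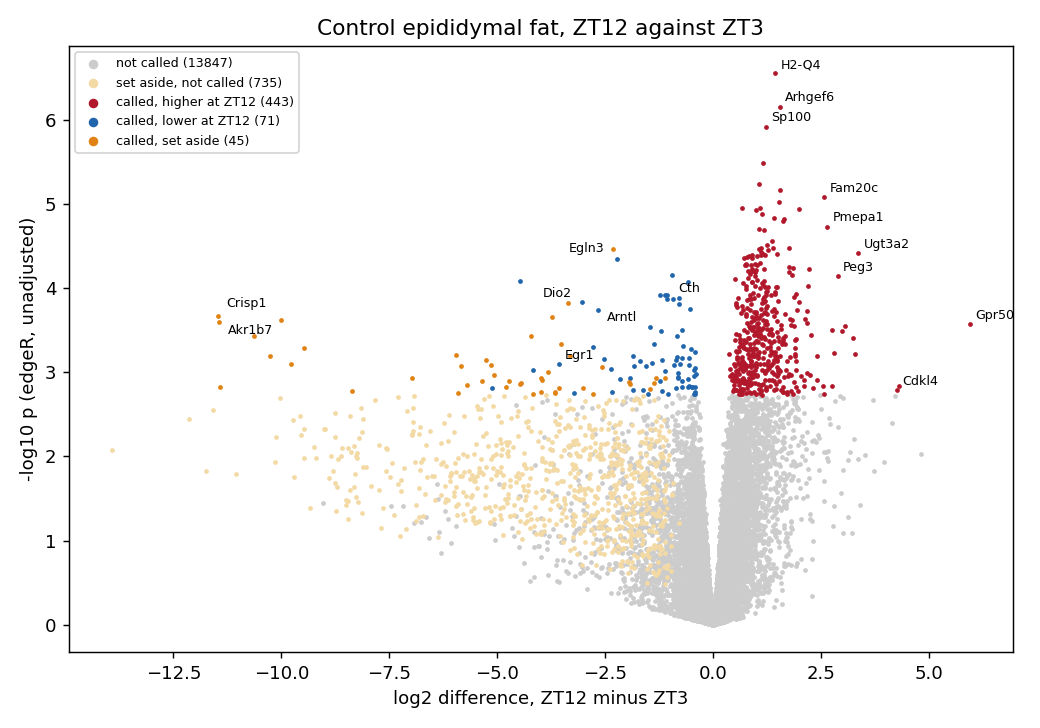
Log2 difference between ZT12 and ZT3 (x axis) against -log10 of the unadjusted edgeR p (y axis) for each of 15141 genes in control eWAT. The 443 genes that rose (red) gather between 0.38 and 5.96, the 71 that fell (blue) lie opposite, and the set-aside genes (orange, darker where called) reach the far left with Crisp1 and Akr1b7.

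Some genes of the core clock stood at different levels at the 2 times, and ZT3 replicate 2 often stood apart from ZT3 replicates 1 and 3. The latter are the libraries with vas deferens transcripts, whose part in the clock values was not tested. Arntl, which encodes BMAL1, was at 23.3, 52.4 and 20.3 CPM at ZT3 and 4.89, 5.58 and 4.56 CPM at ZT12. Its level was highest in ZT3 replicate 2 and low in all ZT12 libraries, and it fell by 2.67 ± 0.46 (SE, edgeR, adjusted p = 0.0212). Clock, which encodes the partner of BMAL1, was at 154, 220.3 and 206 CPM at ZT3 and 111, 122 and 97.2 CPM at ZT12 and fell by 0.81 ± 0.18 (SE, edgeR, adjusted p = 0.0414). Npas2, a paralog of Clock that can take its place, was at 2.96, 10.03 and 3.32 CPM at ZT3 and 0.38, 0.331 and 0.326 CPM at ZT12. Its groups did not overlap, but the difference did not pass the test (log2 difference -3.96 ± 0.97, adjusted p = 0.0533, edgeR). Of 6 tested activator genes 2 fell, against 0.494% of the tested genes that were not set aside. The receptor gene Rora, whose product drives Arntl, overlapped between the times.

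Among the repressors, the period gene Per2 was at 24.1, 25.8 and 45.2 CPM at ZT3 and 81.8, 78.98 and 99.2 CPM at ZT12 and rose by 1.45 ± 0.30 (SE, edgeR, adjusted p = 0.0329). It was the 1 of 6 genes of the period, cryptochrome and Ciart list to pass the test, which 2.93% of all tested genes did as rises. Per3 was at 70.3, 18.3 and 37.4 CPM at ZT3 and 102, 95.5 and 127 CPM at ZT12, lowest in ZT3 replicate 2 (log2 difference 1.36 ± 0.42, adjusted p = 0.0964, edgeR). Per1, Cry1 and Cry2 had adjusted p values of 0.251, 0.967 and 0.397 (edgeR), and Per1 and Cry1 overlapped between the times. Nr1d1, the gene of the receptor REV-ERB alpha that represses Arntl, was at 201, 138 and 203 CPM at ZT3 and 84.3, 84.5 and 80.7 CPM at ZT12 (log2 difference -1.12 ± 0.34, adjusted p = 0.0918, edgeR). Its paralog Nr1d2 was at 84.3, 34.9 and 70.7 CPM at ZT3 and 90.4, 104 and 89.04 CPM at ZT12. Neither passed the test, and the 2 paralogs lay in opposite directions without overlap. Bhlhe40 and Bhlhe41, which encode the DEC repressors, overlapped between the times (edgeR, adjusted p = 0.501 and 0.649). Of these 4 REV-ERB and DEC genes edgeR thus called 0, with 1 at an unadjusted p under 0.05, DESeq2 1 and limma 0. Over all tested genes 22.4% had such a p.

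None of 12 clock output genes passed the test (edgeR), while 3 had an unadjusted p under 0.05, DESeq2 called 2 and limma 0. Over all tested genes 22.4% had such a p, and DESeq2 called 2168 of 15141. Dbp, Tef and Hlf encode the factors that bind the D-box, and Nfil3 encodes the repressor of the same site. Dbp was at 63.4, 10.6 and 31.4 CPM at ZT3 and 78.4, 70.99 and 76.01 CPM at ZT12, Tef at 157, 71.1 and 124 CPM at ZT3 and 238, 218 and 264 CPM at ZT12 and Hlf at 45.04, 11.8 and 28.9 CPM at ZT3 and 28.97, 26.2 and 25.9 CPM at ZT12. In ZT3 replicate 2 all 3 were at their lowest, whereas Nfil3 was at 11.5, 48.4 and 48.6 CPM at ZT3 and 17.5, 20.4 and 13.96 CPM at ZT12 and lowest in ZT3 replicate 1. With replicate 2 as the sole ZT3 control, Dbp, Tef, Hlf, Per3, Nr1d2 and Ciart were called higher and Arntl, Clock and Npas2 lower at ZT12, while the calls of Per2 and Timeless were lost (edgeR, adjusted p = 0.0544 and 0.0841). The difference in Dbp moved with that library: without ZT3 replicate 2 its log2 difference was 0.63 and without ZT3 replicate 1 it was 1.84, against 1.09 with all libraries. Of 16 clock modifiers 1 rose, where 2.93% of all tested genes did. It was Timeless, a partner of the replication and clock machinery whose promoter stretch is shown above. Timeless was at 8.69, 8.91 and 7.52 CPM at ZT3 and 16.95, 18.1 and 13.5 CPM at ZT12 (log2 difference 0.95 ± 0.17, adjusted p = 0.0216, edgeR).

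**Figure D3:**
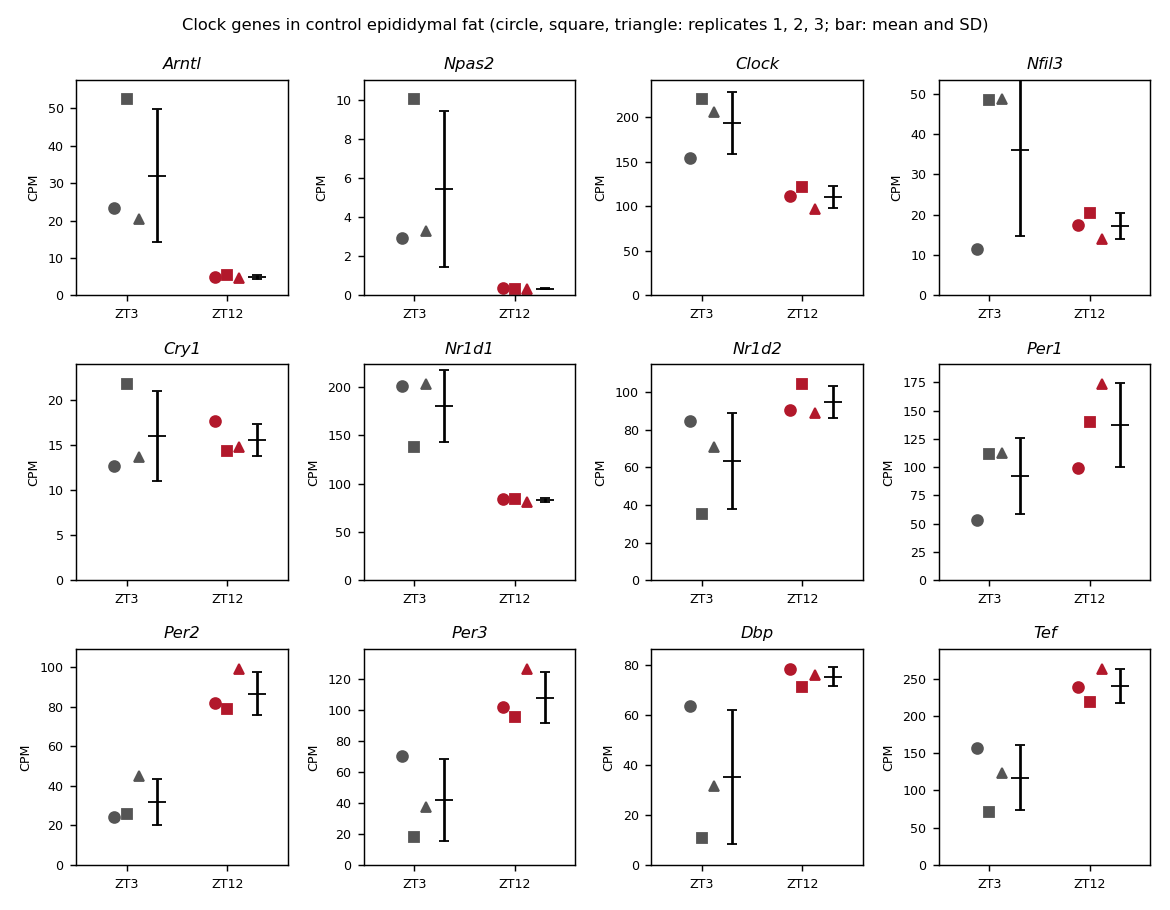
CPM of 12 clock genes in the 6 control eWAT libraries, with ZT3 in grey and ZT12 in red, replicates 1, 2 and 3 as circles, squares and triangles, and the mean and SD of each group as a bar beside the points. Arntl, Npas2 and Clock are lower and Per2, Per3 and Tef higher in every ZT12 library, and ZT3 replicate 2 is the highest library for Arntl (52.4 CPM) and the lowest for Dbp (10.6 CPM).

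Interferon response genes were higher at ZT12. All 25 had a difference above 0, as did 48.7% of all tested genes, 10 rose past the test against 2.93% of all tested genes, and 21 had groups without overlap higher at ZT12, as did 19.3% of all tested genes. Their median was 0.90, beside -0.01 over all tested genes. Transcription factors of the pathway were among them. Stat2, which relays type I interferon signals, was at 41.6, 39.01 and 37.4 CPM at ZT3 and 70.8, 81.3 and 58.9 CPM at ZT12 and rose by 0.84 ± 0.14 (SE, edgeR, adjusted p = 0.0195). Irf7, the factor that amplifies type I interferon, was at 17.1, 13.6 and 14.6 CPM at ZT3 and 22.8, 28.9 and 26.8 CPM at ZT12 (log2 difference 0.79 ± 0.14, adjusted p = 0.024, edgeR). In both genes every ZT12 library lay above every ZT3 library. Of the effectors, the 2′-5′ oligoadenylate synthetases Oas1a and Oas2, which make the activator of RNase L, rose by 1.68 ± 0.33 and 1.41 ± 0.24. The antiviral proteins encoded by Ifit2 and Ifit3, which bind foreign RNA, rose by 1.01 ± 0.19 and 1.43 ± 0.29, the virus tether Bst2 by 0.93 ± 0.19, the ADP-ribosyltransferase Parp14 by 0.97 ± 0.15 and the apoptosis factor Xaf1 by 0.90 ± 0.18. Ifit3 was at 15.2, 12.4 and 9.76 CPM at ZT3 and 33.8, 38.8 and 28.4 CPM at ZT12, and Oas1a at 2.05, 1.90 and 2.05 CPM at ZT3 and 5.89, 8.08 and 5.26 CPM at ZT12. Both went up in all 3 ZT12 libraries, and Ifit3 is hard to separate from its near copy Ifit3b when reads are counted. Without the 3 ZT3 libraries with other tissue, 7 of the 25 genes were called higher, against 1.73% of all genes tested there, and Stat2 and Oas1a were not called (edgeR, adjusted p = 0.0558 and 0.0992).

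A further pair of interferon-inducible genes, outside that list, had some of the smallest p-values of the comparison. Sp100, a component of PML nuclear bodies, was at 52.4, 47.4 and 44.9 CPM at ZT3 and 120.3, 112 and 105 CPM at ZT12 and rose by 1.22 ± 0.12 (SE, edgeR, adjusted p = 0.00607). Irgm2, an immunity-related GTPase whose ISRE is shown above, was at 31.7, 32.4 and 31.2 CPM at ZT3 and 77.5, 71.6 and 62.6 CPM at ZT12 and rose by 1.15 ± 0.12 (edgeR, adjusted p = 0.0122). Levels were tight within each group for both, with no overlap between the times.

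The MHC class I presentation list moved the same way. All 15 genes had groups without overlap (19.3% of all tested genes lay higher without overlap), 10 rose past the test (2.93% of all tested genes did), and the median was 0.77. H2-Q4, a non-classical class I heavy chain, had the smallest p of all genes: it was at 29.6, 37.4 and 32.9 CPM at ZT3 and 90.5, 92.4 and 87.4 CPM at ZT12 and rose by 1.44 ± 0.12 (SE, edgeR, adjusted p = 0.00426). The classical heavy chain H2-K1 was at 382, 567 and 418 CPM at ZT3 and 1043, 1016 and 1029.6 CPM at ZT12 and rose by 1.18 ± 0.16, and H2-D1 rose by 1.12 ± 0.16. B2m, the light chain shared by all class I molecules, was at 1381, 1516 and 1240.1 CPM at ZT3 and 2650.1, 2395 and 2577 CPM at ZT12 (log2 difference 0.88 ± 0.16, adjusted p = 0.0239, edgeR). Class I heavy chain genes resemble each other closely, so reads may be assigned to the wrong member. The chain that feeds peptides to these molecules rose with them. The immunoproteasome subunits Psmb8, Psmb9 and Psmb10 rose by 1.06 ± 0.12, 0.94 ± 0.18 and 0.999 ± 0.19, the peptide transporter Tap1 by 0.64 ± 0.12, the loading factor Tapbp by 0.77 ± 0.12 and the class Ib gene H2-T23 by 0.70 ± 0.15. Psmb8 was at 24.4, 25.3 and 25.1 CPM at ZT3 and 55.3, 50.1 and 50.1 CPM at ZT12, with 3 nearly equal ZT3 libraries. The proteasome activator genes Psme1 and Psme2 and the transactivator Nlrc5 did not pass the test (edgeR, adjusted p = 0.586, 0.426 and 0.0545). Psmb9, Psmb10 and Tap1, in the fit without the 3 ZT3 libraries with other tissue, lost their call (edgeR, adjusted p = 0.0602, 0.0951 and 0.0571).

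Of 8 MHC class II genes, which serve presentation to helper T cells, 6 rose, as did 2.93% of all tested genes, and the median was 1.23. H2-Aa was at 221, 228 and 233 CPM at ZT3 and 576, 531 and 525 CPM at ZT12 (log2 difference 1.26 ± 0.21, adjusted p = 0.0193, edgeR). Cd74, the invariant chain that guards the peptide groove, was at 491, 502 and 547 CPM at ZT3 and 1144, 1107 and 1069.5 CPM at ZT12 and rose by 1.11 ± 0.21. H2-Ab1, H2-Eb1, H2-DMa and H2-DMb1 rose by 1.19 ± 0.20, 1.23 ± 0.20, 1.23 ± 0.22 and 1.54 ± 0.30. The 3 ZT3 libraries differed little in these genes although 2 of them held other tissue. Ciita, the master regulator of class II genes, was at 11.7, 10.7 and 13.4 CPM at ZT3 and 32.8, 29.6 and 21.4 CPM at ZT12 and narrowly missed the test (edgeR, adjusted p = 0.0516). H2-DMb2 was at 1.55, 1.80 and 2.69 CPM at ZT3 and 1.42, 0.898 and 1.77 CPM at ZT12 with overlapping groups. All 6 calls were kept without the 3 ZT3 libraries with other tissue.

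Macrophage markers were higher at ZT12 as a group. All 23 had a difference above 0 (48.7% of all tested genes did), with a median of 1.27, and 18 had groups without overlap (19.3%), but 4 rose past the test (2.93%). They summed to 1150, 1400 and 1200 CPM at ZT3 and to 3060, 3650 and 2080 CPM at ZT12. In bulk tissue more cells of a type and more RNA per cell cannot be told apart. Csf1r, the receptor that keeps macrophages alive, was at 129, 136 and 114 CPM at ZT3 and 335, 363 and 225 CPM at ZT12 (log2 difference 1.28 ± 0.27, adjusted p = 0.0349, edgeR). Cd14, a co-receptor for bacterial lipopolysaccharide, was at 9.34, 9.69 and 9.13 CPM at ZT3 and 22.98, 26.99 and 17.4 CPM at ZT12 and rose by 1.26 ± 0.25, and Fcgr3 and Ms4a7 rose by 1.27 ± 0.27 and 1.52 ± 0.33. ZT12 replicate 2 was the highest and ZT12 replicate 3 the lowest ZT12 library in each of these 4 genes. That spread was wider in the markers that missed the test, such as Cd68, a lysosomal glycoprotein of macrophages, at 44, 52.3 and 37.2 CPM at ZT3 and 130.3, 227 and 76.4 CPM at ZT12 (log2 difference 1.70 ± 0.42, adjusted p = 0.0528, edgeR) and Adgre1, the gene of F4/80, at 39.99, 51.5 and 34.7 CPM at ZT3 and 116, 174 and 70.1 CPM at ZT12 (edgeR, adjusted p = 0.0545). Without the 3 ZT3 libraries with other tissue the median was 1.06 and 0 of the 23 were called (edgeR), with 6 at an unadjusted p under 0.05. The part of the macrophage sum in the interferon, MHC, lysosome and complement results was not tested.

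Genes of the lysosome leaned the same way. Of 27 lysosome and autophagy genes 6 rose, against 2.93% of all tested genes, and the median was 0.57. The enzymes among them were Lipa, the acid lipase that frees cholesterol and fatty acids (1.35), the hexosaminidase Hexa (0.997) and the cathepsins Ctsa, Ctsk and Ctsz (0.75, 1.36 and 0.99). Tfeb, the transcription factor that drives lysosome genes, was at 15.1, 12.5 and 11.4 CPM at ZT3 and 18.8, 20.2 and 19.3 CPM at ZT12 and rose by 0.58 ± 0.13 (SE, edgeR, adjusted p = 0.0427). Lipa was at 78.4, 113 and 67.5 CPM at ZT3 and 199, 319 and 142 CPM at ZT12 and peaked in ZT12 replicate 2, as the macrophage markers did. Without the 3 ZT3 libraries with other tissue 0 of the 27 were called (edgeR), with 9 at an unadjusted p under 0.05, the median was 0.37 and the difference of Ctsz was 0.58.

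Of 18 acute phase and cytokine genes 3 rose, against 2.93% of all tested genes, and the median was 0.39. Haptoglobin (Hp), a haemoglobin scavenger that fat secretes, was at 946, 1515 and 758 CPM at ZT3 and 3999, 4471 and 3275 CPM at ZT12 and rose by 1.87 ± 0.34 (SE, edgeR, adjusted p = 0.0248). The complement genes Cfb and C4b, which encode factor B of the alternative pathway and a form of C4, rose by 1.44 ± 0.24 and 1.71 ± 0.41. Cfb was at 192, 271 and 128 CPM at ZT3 and 492, 606 and 505 CPM at ZT12, so ZT12 replicates stayed close together while the ZT3 libraries spread over more than a 2-fold range. When the 3 ZT3 libraries with other tissue were left out, the difference of Cfb was 0.94 and C4b was not called (edgeR, adjusted p = 0.124). C3 and the acute phase gene Saa3 lay higher without overlap and missed the test, with differences of 1.36 and 2.49 (edgeR, adjusted p = 0.061 and 0.0502). Of 19 chemokine genes 1 rose, a share near the 2.93% of all tested genes. It was Cxcl12, which holds leukocytes in tissue, at 200.3, 163 and 156 CPM at ZT3 and 302, 378 and 247 CPM at ZT12 (log2 difference 0.84 ± 0.18, adjusted p = 0.0387, edgeR), and it was not called without the 3 ZT3 libraries (edgeR, adjusted p = 0.0683).

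A further 10 genes were named for the smallest p-values among those called also without the 3 ZT3 libraries. Arhgef6, an exchange factor for the GTPases RAC and CDC42, was at 45.7, 53.4 and 37.1 CPM at ZT3 and 139.7, 136 and 121 CPM at ZT12 and rose by 1.54 ± 0.14 (SE, edgeR, adjusted p = 0.0053). Mfge8, which bridges dying cells to phagocytes, was at 403, 423 and 256 CPM at ZT3 and 1061, 1074 and 1028 CPM at ZT12 (log2 difference 1.55 ± 0.18, adjusted p = 0.0148, edgeR). Pros1, the anticoagulant protein S and a ligand of the same engulfment system, rose by 1.13 ± 0.14. Il10ra, the receptor for interleukin 10, rose by 1.41 ± 0.18, the formin Fmnl1 by 0.99 ± 0.12 and the kinase Fyn by 0.67 ± 0.08. Galnt16, which starts O-linked sugar chains, the lysoplasmalogenase gene Tmem86a, the endoribonuclease gene Endou and the septin gene Sept8 rose by 1.53 ± 0.19, 1.64 ± 0.21, 1.997 ± 0.25 and 1.09 ± 0.14.

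**Figure D4:**
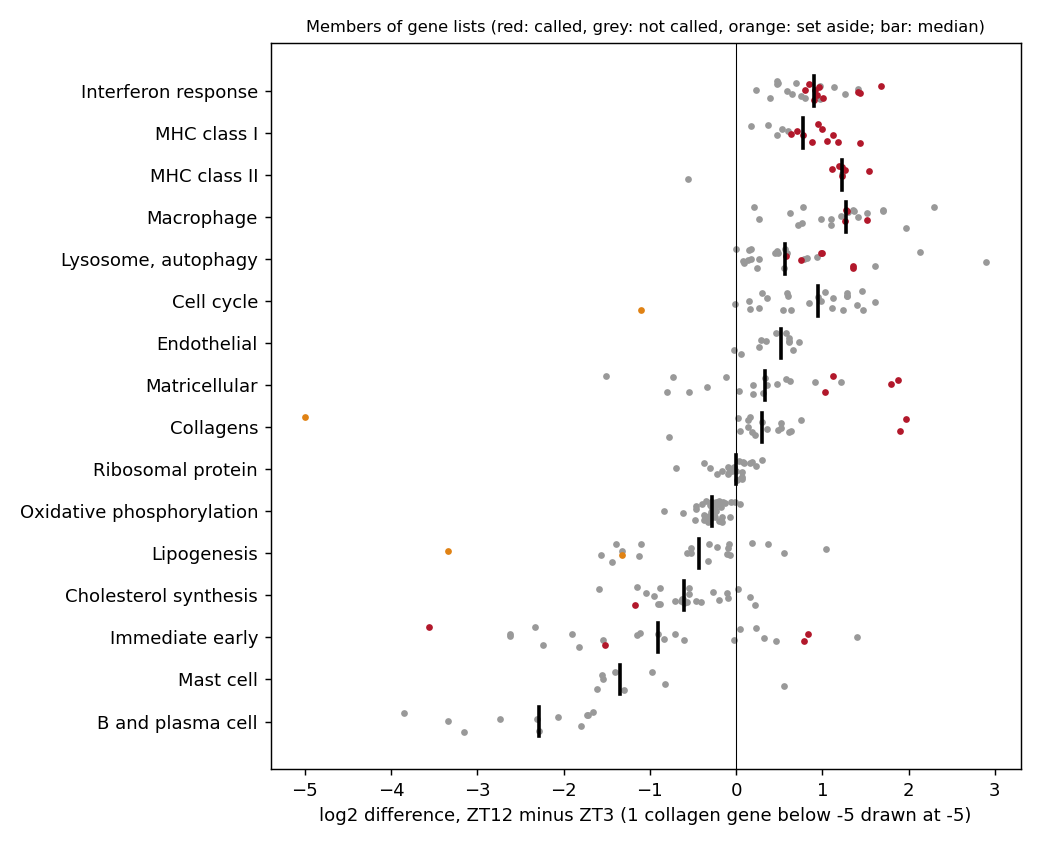
Log2 difference between ZT12 and ZT3 (x axis) of each tested member of 16 gene lists, with called genes in red, genes not called in grey, set-aside genes in orange and the median of the list as a bar. The interferon, MHC and macrophage lists lie to the right with medians from 0.77 to 1.27, and the immediate early, mast cell and B cell lists lie to the left with medians from -0.91 to -2.29.

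Extracellular matrix genes included several rises of abundant transcripts. Of 21 matricellular and glycoprotein genes 4 rose (2.93% of all tested genes did), of 19 collagens 2 and of 23 elastic fibre and crosslinking genes 2, with medians of 0.34, 0.30 and 0.21. Sparc, a collagen-binding protein that adipocytes secrete, was at 2844, 4008 and 2372 CPM at ZT3 and 6246, 6154 and 6387 CPM at ZT12 (log2 difference 1.03 ± 0.23, adjusted p = 0.0404, edgeR). Prelp, a leucine-rich proteoglycan, was at 983, 924 and 323 CPM at ZT3 and 2659, 2350.5 and 2737 CPM at ZT12 and rose by 1.80 ± 0.37. Its ZT3 replicate 3 lay far below the other ZT3 libraries. Thbs2, a thrombospondin, rose by 1.87 ± 0.31 and the tenascin Tnxb by 1.12 ± 0.26. Col12a1, a collagen that decorates fibrils, was at 23.1, 23.8 and 31.3 CPM at ZT3 and 95.5, 111 and 85.04 CPM at ZT12 and rose by 1.90 ± 0.37, and Col16a1 by 1.96 ± 0.46. Fbln2, a fibulin of elastic fibres, rose by 1.35 ± 0.22 and the lysyl hydroxylase Plod1 by 0.78 ± 0.16. The fibrillar chain Col1a2 was at 406, 381 and 457 CPM at ZT3 and 601, 684 and 498 CPM at ZT12 without overlap and missed the test (edgeR, adjusted p = 0.147). Without the 3 ZT3 libraries with other tissue Thbs2, Prelp, Col12a1, Col16a1 and Plod1 were still called, and Sparc, Tnxb and Fbln2 were not (edgeR). The difference of Sparc was 0.60 there, and the medians of the matricellular and collagen lists were 0.185 and 0.03.

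A pair of genes that TGF-beta is known to induce were among the rises. Pmepa1, a membrane protein that damps SMAD signalling, was at 71.2, 116 and 69.6 CPM at ZT3 and 589, 477 and 536 CPM at ZT12 and rose by 2.64 ± 0.35 (SE, edgeR, adjusted p = 0.0164). Tgfbi, a secreted matrix protein, was at 70.7, 79.2 and 78.6 CPM at ZT3 and 206, 186 and 151 CPM at ZT12 and rose by 1.25 ± 0.21. These were 2 of 22 genes of the TGF-beta list (1 set aside), where 2.93% of all tested genes rose. The median of the list was 0.06, and 0.13 without the 3 ZT3 libraries with other tissue. The ligand Tgfb1 was at 53.8, 56.9 and 63.4 CPM at ZT3 and 88.5, 93.9 and 65.6 CPM at ZT12 and missed the test (edgeR, adjusted p = 0.0966). Of 25 BMP, Wnt and hedgehog genes (4 set aside) 1 rose, a share near the 2.93% of all tested genes. It was Wisp2, a secreted regulator of the Wnt pathway made by adipose progenitors. Wisp2 was at 8.32, 3.70 and 10.4 CPM at ZT3 and 66.1, 40.2 and 45.1 CPM at ZT12 (log2 difference 2.76 ± 0.63, adjusted p = 0.0456, edgeR). Neither Pmepa1 nor Tgfbi nor Wisp2 was called without the 3 ZT3 libraries (edgeR), with differences there of 2.16, 1.15 and 3.72.

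The largest rises were found in genes of varied function. Gpr50, an X-linked orphan receptor related to melatonin receptors, was at 0.65, 1.07 and 0.293 CPM at ZT3 and 28.5, 56.6 and 40.5 CPM at ZT12, and it rose by 5.96 ± 1.09 (SE, edgeR, adjusted p = 0.0242). It was at or under 1.07 CPM in every ZT3 library and at 28.5 CPM or more in every ZT12 library. Peg3, an imprinted zinc finger gene, was at 24.1, 15.6 and 8.59 CPM at ZT3 and 168, 74.5 and 117 CPM at ZT12 (log2 difference 2.89 ± 0.45, adjusted p = 0.0175, edgeR). It was the 1 of 15 imprinted genes that rose, where 2.93% of all tested genes did. Mest, an imprinted gene tied to fat cell size, was at 396, 859 and 458 CPM at ZT3 and 1494, 1399 and 1122 CPM at ZT12 and missed the test (edgeR, adjusted p = 0.0715). Fam20c, the kinase that phosphorylates secreted proteins, was at 41.1, 48.6 and 35.6 CPM at ZT3 and 260.4, 193 and 293 CPM at ZT12 and rose by 2.58 ± 0.31. Car12, a membrane carbonic anhydrase, was at 3.46, 2.19 and 1.03 CPM at ZT3 and 34.1, 13.9 and 18.3 CPM at ZT12 and rose by 3.30 ± 0.67. The protein kinase gene Cdkl4 was at 1.20, 3.26 and 0.586 CPM at ZT3 and 28.9, 47.3 and 20.7 CPM at ZT12, Ugt3a2, a glycosyltransferase, at 0.65, 1.70 and 0.391 CPM at ZT3 and 8.41, 10.5 and 9.35 CPM at ZT12 and Adamtsl2, a regulator of microfibrils, at 2.08, 8.42 and 2.83 CPM at ZT3 and 33.5, 24.96 and 31.6 CPM at ZT12. They rose by 4.27 ± 1.001, 3.37 ± 0.48 and 2.76 ± 0.51. For these 3 genes ZT3 replicate 2 was the highest ZT3 library. The difference of Adamtsl2 was 1.79 without the 3 ZT3 libraries with other tissue, where Adamtsl2, Gpr50 and Peg3 narrowly lost their call (edgeR, adjusted p = 0.0517, 0.0502 and 0.0502).

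Others of the 20 largest rises reached higher levels. Mrc2, an endocytic collagen receptor, was at 76.5, 131 and 38.2 CPM at ZT3 and 394, 366 and 409.5 CPM at ZT12 and rose by 2.25 ± 0.50. Lctl, a klotho-like protein, was at 18.8, 44.6 and 9.37 CPM at ZT3 and 125, 139.7 and 121 CPM at ZT12 and rose by 2.41 ± 0.49. Nup210, a nuclear pore protein, was at 15.97, 16.02 and 15.2 CPM at ZT3 and 84.3, 65.1 and 64.5 CPM at ZT12, with 3 nearly equal ZT3 libraries, and rose by 2.18 ± 0.38. Clec12a, an inhibitory lectin of myeloid cells, was at 11.5, 10.9 and 7.03 CPM at ZT3 and 39.7, 68.9 and 29.9 CPM at ZT12 and rose by 2.23 ± 0.34. The rest were at or under 17.6 CPM in every library: AW822252 (3.06), the GABA receptor subunit Gabrr2 (2.54), the potassium channel Kcnj14 (2.42), the MAP kinase phosphatase Dusp9 (2.20), the plakin Eppk1 (2.13), the glycine receptor subunit Glrb (2.11) and Hhipl1 (2.05). Gabrr2, Glrb, Hhipl1 and Clec12a were not called without the 3 ZT3 libraries with other tissue (edgeR, adjusted p = 0.123, 0.176, 0.0758 and 0.0632). The differences of Glrb, Kcnj14 and Lctl were 1.25, 1.43 and 1.48 there. Trp53inp2, a promoter of autophagy and 1 of the 5 most abundant called genes, was at 554, 1067 and 611 CPM at ZT3 and 2206, 2081 and 1991 CPM at ZT12 (log2 difference 1.49 ± 0.31, adjusted p = 0.0346, edgeR). ZT3 replicate 2 was its highest ZT3 library, as it was for the adipocyte markers, whose part in the difference was not tested, and with replicate 2 as the sole ZT3 control its difference was 0.93 and not called (edgeR, adjusted p = 0.1).

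**Figure D5:**
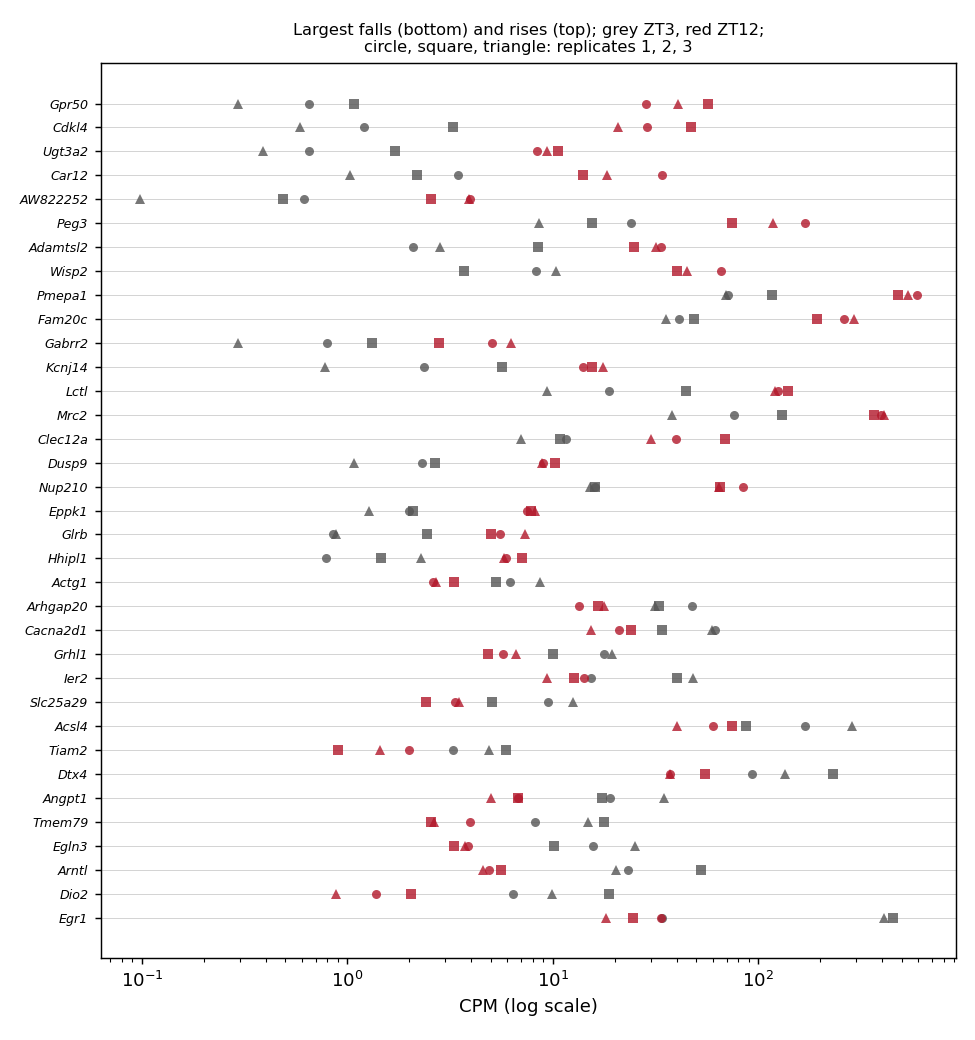
CPM (log axis) of the 20 genes with the largest rises (top) and the 15 with the largest falls (bottom) in the 6 control eWAT libraries, ZT3 in grey and ZT12 in red, replicates 1, 2 and 3 as circles, squares and triangles. Grey and red points do not overlap for any gene, which the choice of these genes required, with Gpr50 going from at most 1.07 CPM to 28.5 CPM or more, while for Egr1 the lowest ZT3 library (33.9 CPM) is level with the highest ZT12 library (33.5 CPM).

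The falls were smaller in number. Dio2, the deiodinase that makes active thyroid hormone inside cells, was at 6.40, 18.7 and 9.96 CPM at ZT3 and 1.38, 2.03 and 0.884 CPM at ZT12 and fell by 3.03 ± 0.51 (SE, edgeR, adjusted p = 0.02). Every ZT12 library lay below the lowest ZT3 library, and ZT3 replicate 2 was the highest. Dio2 was the 1 of 10 thermogenic genes to fall, against 0.494% of the tested genes that were not set aside. The lowest difference of that list was -3.63, in a gene that did not pass the test. Lower at an unadjusted p under 0.05 were 2 of the 10 (edgeR), and DESeq2 called 2 lower and limma 1. Over all tested genes 22.4% had such a p in either direction. Egln3, an oxygen-sensing prolyl hydroxylase, was at 15.6, 10.1 and 25.05 CPM at ZT3 and 3.85, 3.31 and 3.72 CPM at ZT12 and fell by 2.22 ± 0.32 (SE, edgeR, adjusted p = 0.0168). Angpt1, a ligand that stabilises vessels, was at 18.96, 17.4 and 34.6 CPM at ZT3 and 6.79, 6.76 and 5.02 CPM at ZT12 (log2 difference -1.93 ± 0.43, adjusted p = 0.0414, edgeR), and Acsl4, which activates long-chain polyunsaturated fatty acids, was at 169, 86.8 and 285 CPM at ZT3 and 60.3, 74.7 and 40.1 CPM at ZT12 (log2 difference -1.63 ± 0.38, adjusted p = 0.0473, edgeR). Dtx4, a ubiquitin ligase, was at 93.5, 231 and 135 CPM at ZT3 and 37.1, 54.97 and 37.2 CPM at ZT12 and fell by 1.83 ± 0.39. The RAC exchange factor Tiam2, the mitochondrial amino acid carrier Slc25a29 and the grainyhead-like factor Grhl1 fell with differences of -1.69, -1.55 and -1.45. The membrane protein gene Tmem79, the calcium channel subunit Cacna2d1 and the GTPase-activating protein gene Arhgap20 fell with differences of -2.15, -1.36 and -1.23. Actg1, cytoplasmic gamma actin, was counted at only 2.61 to 8.64 CPM. It has near-identical copies in the genome, so its difference of -1.22 is uncertain. Acsl4, Grhl1 and Cacna2d1 were higher in ZT3 replicates 1 and 3 than in replicate 2. Their differences without the 3 ZT3 libraries with other tissue were -0.61, -0.85 and -0.79, that of Slc25a29 was -0.76, and none of these 4 was called (edgeR, adjusted p = 0.239, 0.0773, 0.123 and 0.127). Angpt1 and Actg1 lost their call as well (edgeR, adjusted p = 0.123 and 0.12).

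The next 3 genes, which fell too, were singled out after their values were seen. Srf, the serum response factor that switches on immediate early and cytoskeletal genes, was at 62.6, 65.6 and 79.2 CPM at ZT3 and 40.8, 38.8 and 40.4 CPM at ZT12 and fell by 0.79 ± 0.13 (edgeR, adjusted p = 0.0195). Prkaa2, a catalytic subunit of the energy sensor AMPK, was at 34.04, 39.8 and 38.9 CPM at ZT3 and 22.3, 22.3 and 19.3 CPM at ZT12 and fell by 0.82 ± 0.18 (edgeR, adjusted p = 0.0412). Gfpt1, the entry enzyme of the hexosamine pathway, was at 129.5, 141 and 149.7 CPM at ZT3 and 103, 108 and 107 CPM at ZT12 and fell by 0.41 ± 0.08. For all 3 the ZT3 libraries stood close together, and all 3 were called without the 3 ZT3 libraries with other tissue.

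Immediate early genes, which respond within minutes to stimuli and to handling of tissue, lay lower at ZT12 for the most part. Of 23 genes 16 lay lower, as did 51.3% of all tested genes, and 7 higher. Past the test 2 rose, against 2.93% of all tested genes, and 2 fell, against 0.494% of those not set aside. At an unadjusted p under 0.05 (edgeR) 10 were lower and 3 higher, where 22.4% of all tested genes had such a p. DESeq2 called 8 lower and 3 higher, and limma 1 lower and 2 higher. The median was -0.91. Egr1, a zinc finger factor, was at 33.9, 454 and 409 CPM at ZT3 and 33.5, 24.6 and 18.1 CPM at ZT12 and fell by 3.56 ± 0.75 (SE, edgeR, adjusted p = 0.0359). ZT3 replicate 1 was level with ZT12 for this gene, and ZT3 replicates 2 and 3 were far above it. The same library pattern was seen in Ier2 at 15.3, 40.2 and 48.1 CPM at ZT3 and 14.2, 12.6 and 9.35 CPM at ZT12 (log2 difference -1.51 ± 0.36, adjusted p = 0.0498, edgeR), and in Egr2, at 15.8, 46.9 and 60.6 CPM at ZT3 and 8.22, 12.7 and 3.54 CPM at ZT12, which missed the test (edgeR, adjusted p = 0.0609). Jun, a subunit of AP-1, was at 47.3, 39.5 and 41.5 CPM at ZT3 and 72.4, 74.8 and 82.2 CPM at ZT12 and rose by 0.84 ± 0.12 (edgeR, adjusted p = 0.0168). Klf2, a factor of endothelial cells and macrophages, was at 36.9, 57.2 and 32.9 CPM at ZT3 and 72.9, 77.4 and 68.9 CPM at ZT12 and rose by 0.79 ± 0.18. Without the 3 ZT3 libraries with other tissue the difference of Klf2 was only 0.31, and the median of the list was -1.05. How long each tissue was held before lysis is not given in the sources used here.

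Stress lists had medians near 0. Of 14 heat shock genes 1 rose, where 2.93% of all tested genes did. Hspb1, a small chaperone, went up by 0.91 ± 0.13 (SE, edgeR, adjusted p = 0.0168) from low levels, at 11.3, 11.8 and 10.4 CPM at ZT3 and 21.2, 22.4 and 19.6 CPM at ZT12. Of 14 genes of the integrated stress response 1 rose and 1 fell, against 2.93% of all tested genes and 0.494% of those not set aside. Chac1, which degrades glutathione, was at 2.68, 2.24 and 2.34 CPM at ZT3 and 7.65, 6.10 and 8.65 CPM at ZT12 (log2 difference 1.62 ± 0.31, adjusted p = 0.0277, edgeR), and Cth, which makes cysteine, was at 23.01, 21.4 and 19.8 CPM at ZT3 and 9.50, 11.5 and 9.91 CPM at ZT12 (log2 difference -1.06 ± 0.17, adjusted p = 0.0193, edgeR). The medians of these 2 lists were -0.05 and -0.08. Chac1 was not called without the 3 ZT3 libraries with other tissue (edgeR, adjusted p = 0.0902), 2 heat shock genes were called lower, and the medians of the heat shock and glucocorticoid lists were -0.18 and 0.02. None of 20 endoplasmic reticulum stress genes passed the test (edgeR, median -0.01), with 2 at an unadjusted p under 0.05, 1 called by DESeq2 and 0 by limma. Over all tested genes 22.4% had such a p, and DESeq2 called 2168 of 15141. Of 16 glucocorticoid-responsive genes 0 passed (edgeR, median 0.12), with 4 at an unadjusted p under 0.05, 4 called by DESeq2 and 1 by limma. Among the latter, Tsc22d3, the glucocorticoid-induced leucine zipper, lay higher without overlap at 120.3, 200 and 165 CPM at ZT3 and 296, 371 and 476 CPM at ZT12 (log2 difference 1.24 ± 0.31, adjusted p = 0.0555, edgeR).

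Most genes of cholesterol synthesis and lipogenesis lay lower at ZT12, as did 51.3% of all tested genes, though 1 and 0 of them passed the test (edgeR). Of 25 cholesterol synthesis genes 22 lay lower at ZT12, with a median of -0.61, and 1 fell, against 0.494% of the tested genes that were not set aside. Lower at an unadjusted p under 0.05 were 8 of the 25 (edgeR), where 22.4% of all tested genes had such a p in either direction. DESeq2 called 5 lower and limma 1. Tm7sf2, a sterol reductase, was at 15.2, 14.7 and 21.5 CPM at ZT3 and 7.31, 9.69 and 5.81 CPM at ZT12 (log2 difference -1.17 ± 0.24, adjusted p = 0.0345, edgeR). Sqle, the epoxidase that commits squalene to sterols, was at 48.6, 97.9 and 100.3 CPM at ZT3 and 24.8, 38.8 and 18.2 CPM at ZT12 (log2 difference -1.59 ± 0.42, adjusted p = 0.0651, edgeR), with ZT3 replicate 1 below the other ZT3 libraries. Of 22 lipogenesis genes 18 lay lower and 0 passed the test (edgeR, median -0.43, with 2 set aside). An unadjusted p under 0.05 was found for 3, as for 22.4% of all tested genes, and DESeq2 called 2 and limma 1. Elovl6, a fatty acid elongase, was at 127, 517 and 405 CPM at ZT3 and 122, 139 and 92.4 CPM at ZT12 and Acacb, an acetyl-CoA carboxylase, at 87.9, 425 and 413 CPM at ZT3 and 104, 96.1 and 141 CPM at ZT12, so ZT3 replicate 1 was at the level of the ZT12 libraries for both. Lpin1, which makes diacylglycerol, lay the other way at 343, 608 and 365 CPM at ZT3 and 875, 819.7 and 1007 CPM at ZT12 (log2 difference 1.04 ± 0.28, adjusted p = 0.0681, edgeR). With ZT3 replicate 2 as the sole ZT3 control, 6 cholesterol genes and 8 lipogenesis genes were called lower, against 2.27% of all genes tested there, and the medians were -0.99 and -0.75. Tm7sf2 was not called (edgeR, adjusted p = 0.0619).

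Of 40 nuclear genes of oxidative phosphorylation 39 lay lower at ZT12, by small amounts, with a median of -0.28. edgeR called 0, with 3 at an unadjusted p under 0.05 (22.4% of all tested genes), DESeq2 called 2 and limma 0. Over all tested genes 51.3% lay lower. Cox6c, a subunit of cytochrome oxidase with the smallest p of the list, was at 88.6, 78.6 and 88.9 CPM at ZT3 and 59.2, 54.4 and 69.9 CPM at ZT12 (edgeR, adjusted p = 0.132). The summed level of the 40 genes was 5500, 7650 and 6720 CPM at ZT3 and 5380, 5150 and 6120 CPM at ZT12, so ZT3 replicate 1 lay within the ZT12 range. With replicate 2 as the sole ZT3 control the median was -0.49, 3 of the 40 were called lower (edgeR) and 29 had an unadjusted p under 0.05.

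Adipokine genes had a median of 0.80, and 10 of 13 lay higher, with 0 past the test (edgeR). An unadjusted p under 0.05 was found for 5, as for 22.4% of all tested genes, and DESeq2 called 2 and limma 1. The chemerin gene Rarres2 was at 169, 267 and 143 CPM at ZT3 and 364, 371 and 402 CPM at ZT12 (log2 difference 0.97 ± 0.24, adjusted p = 0.0534, edgeR) and the Wnt antagonist Sfrp5 at 119, 104 and 20.9 CPM at ZT3 and 302, 272 and 388 CPM at ZT12 (log2 difference 1.98 ± 0.52, adjusted p = 0.0642, edgeR). Leptin (Lep) was at 2432, 4032 and 1886 CPM at ZT3 and 4967, 5445 and 4378 CPM at ZT12, with ZT3 replicate 2 close to the lowest ZT12 library. The adipocyte markers were lowest in ZT3 replicates 1 and 3, the libraries with vas deferens transcripts, and their part in these values was not tested. With replicate 2 as the sole ZT3 control the median of the adipokines was 0.25. Of 18 lipolysis, 18 lipid uptake and oxidation and 22 adipocyte identity and insulin genes 0 were called by edgeR or limma, while 5, 2 and 4 had an unadjusted p under 0.05 and DESeq2 called 2, 1 and 2. Their medians of 0.15, 0.15 and 0.08 turned below 0 with replicate 2 as the sole ZT3 control (-0.12, -0.31 and -0.18).

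Cell types other than macrophages were read from their markers. Of 11 B and plasma cell genes 0 passed the test (edgeR), with 9 at an unadjusted p under 0.05, 8 called by DESeq2 and 0 by limma. Over all tested genes 22.4% had such a p, and DESeq2 called 2168 of 15141. All 11 lay lower at ZT12 without overlap, with a median of -2.29. Of all tested genes that were not set aside 12% lay lower without overlap. Ms4a1, the gene of CD20, was at 6.35, 8.91 and 10.01 CPM at ZT3 and 0.997, 0.756 and 1.07 CPM at ZT12 (log2 difference -3.15 ± 0.82, adjusted p = 0.0609, edgeR) and Cd79a, which signals for the antigen receptor of B cells, at 4.24, 4.87 and 7.27 CPM at ZT3 and 0.855, 0.614 and 0.977 CPM at ZT12 (edgeR, adjusted p = 0.075). The whole list summed to 75.3, 85 and 278 CPM at ZT3 and 30.1 to 34 CPM at ZT12. The lymph node stroma markers, which share the gene Cr2 with that list, summed to 11.7, 7.65 and 17.6 CPM at ZT3 and 3.59 to 4.94 CPM at ZT12. Because of the shared gene the 2 sums are not independent. Of 4 tested stroma markers 2, among them Cr2, lay lower without overlap, and edgeR called 0, DESeq2 1 and limma 0. With replicate 2 as the sole ZT3 control 3 of the 11 were called lower (edgeR). The part of lymph node tissue in the B cell values was not tested. Mast cell proteases lay lower as well: Cma1, a chymase, was at 10.8, 8.91 and 10.4 CPM at ZT3 and 2.14, 5.44 and 2.23 CPM at ZT12 (log2 difference -1.62 ± 0.42, adjusted p = 0.0626, edgeR), and Tpsb2, a tryptase, at 15.6, 12.2 and 16.9 CPM at ZT3 and 3.66, 7.52 and 4.09 CPM at ZT12. Of the 8 mast cell genes 0 were called (edgeR, median -1.35), with 5 at an unadjusted p under 0.05, 4 called by DESeq2 and 1 by limma. They summed to 83.2, 59.4 and 83.3 CPM at ZT3 and 44.2, 52.7 and 42.8 CPM at ZT12. With replicate 2 as the sole ZT3 control the median of the mast cell genes was -0.94. Of 12 endothelial genes 11 lay higher, with a median of 0.52, and 0 were called by edgeR, DESeq2 or limma, with 4 at an unadjusted p under 0.05. Of 19 progenitor and fibroblast genes (median 0.31) edgeR called 0, with 9 at an unadjusted p under 0.05, DESeq2 7 and limma 1. Of 25 cell cycle genes (median 0.95, 23 higher and 1 set aside) edgeR called 0, DESeq2 1 and limma 0. An unadjusted p under 0.05 was found for 3 of them, against 22.4% of all tested genes. Over all tested genes 48.7% had a difference above 0. Groups lay higher without overlap for 8 endothelial, 9 progenitor and fibroblast and 13 cell cycle genes, against 19.3% of all tested genes. Mki67, a marker of dividing cells, was at 16.99, 11.4 and 27.4 CPM at ZT3 and 56.98, 66.1 and 30.4 CPM at ZT12.

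The set-aside genes are given as a description, since the rule chose them by these levels. Of 780 such genes 45 were called lower at ZT12 (edgeR). Akr1b7 was at 9039, 8.47 and 9325 CPM at ZT3 and 1.99, 1.28 and 3.30 CPM at ZT12, and Crisp1, a secretory protein of the male tract, at 2333, 2.82 and 2664 CPM at ZT3 and 0.57, 0.473 and 0.698 CPM at ZT12. Serpina1f, an epididymal serpin, was at 823, 0.974 and 983 CPM at ZT3 and 0.095, 0.567 and 0.465 CPM at ZT12. Ptgs2, the inducible cyclooxygenase, was at 1567, 5.89 and 2200.2 CPM at ZT3 and 1.57, 1.51 and 0.605 CPM at ZT12, and the smooth muscle myosin Myh11 at 5069.7, 78.99 and 3217 CPM at ZT3 and 71.3, 58.9 and 74.5 CPM at ZT12. Each was high in ZT3 replicates 1 and 3 only, and of the 10 smooth muscle markers 9 met the rule. The mesothelial keratins Krt8, Krt18 and Krt19, the lymphocyte and epithelial factor Gata3 and the desaturases Fads1 and Fads2 were set aside by the same rule. Of the genes nearest the threshold, Adgra2, Ren2 and Map7d2 lay just inside it and Dgki (1.998), Foxq1 (1.99) and the B cell gene Cr2 (1.99) just outside.

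Under the shiftwork schedule, which has its own ZT3 and ZT12 libraries, the contrast between times gave no call (edgeR, 0 of 15141 genes, with 2461 or 16.3% at an unadjusted p under 0.05), while DESeq2 called 287 and limma 0. Of the 443 genes that rose in controls, 408 lay above 0 there, with a median of 0.45, and of the 71 that fell 47 lay below 0, with a median of -0.15. The share of all tested genes on each side of 0 under shiftwork is not given here, so these sign counts have no background beside them. Groups did not overlap in the same direction under shiftwork for 255 of the 443 and 28 of the 71, where 9.05% and 7.59% of all tested genes lay higher or lower without overlap. The test of the difference between the schedules called 0 of 15141 genes (edgeR, smallest adjusted p 0.372), with 1535 (10.1%) at an unadjusted p under 0.05, while DESeq2 called 189 and limma 0. Without ZT3 control replicate 2 edgeR called 186, and without ZT3 shiftwork replicate 3 it called 15. Fam20c illustrates the values: its difference was 2.58 in controls and 0.36 under shiftwork (edgeR, adjusted p of the difference between schedules = 0.372). For Arntl the 2 values were -2.67 and -0.30 (edgeR, adjusted p = 0.419), and for Csf1r they were 1.28 and 0.85 (edgeR, adjusted p = 0.669). An adjusted p above the threshold does not show that the schedules were alike.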

How the data were processed

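RNA of epididymal fat was sequenced from 12 libraries in 4 groups of 3. The authors deposited read counts per gene symbol and log2 FPKM values. Per the submitters' processing notes the tools were edgeR, limma, DESeq2, HTSeq and STAR and the builds GRCm38 and mm10, with neither versions nor roles, and the strand setting is not given in the sources used here, so overlapping and antisense genes cannot be separated.

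Deposited counts of all 12 libraries were fitted with edgeR 4.0.16 (R 4.3.3) in 1 quasi-likelihood model with 4 groups, which share 1 estimate of the spread. Genes were kept by filterByExpr (minimum count 10, minimum total 15), TMM scaling and robust estimation were used, and p-values were adjusted by Benjamini-Hochberg with a threshold of 0.05. SE is the absolute log2 difference over the square root of F. Control libraries held 20352008 to 72276733 assigned reads, and no pair of libraries of 1 group agreed within sampling noise (smallest chi-square per gene 16.6). The model was tested on simulated data. Apart from the changes put in, these had the same mean level per gene in every library, with no other tissue in single libraries. They therefore cannot decide how far single libraries shaped the calls.

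Members and lists were chosen with earlier results of these data known. Named are the clock genes, the 20 largest rises and 15 largest falls among called genes that were not set aside, do not overlap between the groups and have an average logCPM of at least 1 (no predicted genes or antibody segments), the 15 smallest p-values also called without 3 ZT3 libraries, up to 4 members a list with the smallest p, the 5 most abundant called genes, and Akr1b7, Crisp1 and the 5 most abundant called genes that were set aside. All other genes were named after their values were seen. Alternatives were other scalings and filters, DESeq2 1.42.0, limma 3.58.1 on the deposited log2 FPKM values, the controls alone, a replicate block and leaving out libraries. Promoter windows came from RefSeq (GRCm38.p6). Some genes are not reported here.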

Additional observations from a re-analysis of the deposited data

Results flagged for a closer look

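Of the 514 genes called in controls and not set aside, 7 had groups without overlap in opposite directions under the 2 schedules. They were 5 of the 71 that fell (7.04%), where 9.05% of all tested genes lay higher without overlap under shiftwork, and 2 of the 443 that rose (0.451%), where 7.59% lay lower, so both shares were below those of all genes. The difference between the schedules (control minus shiftwork, log2) did not pass the test for any of them (edgeR, adjusted p = 0.372 for each, n = 3 per group). Below, the value of each gene is that difference, and no explanation was tested.

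Cth, which makes cysteine, was at 9.74, 10.3 and 7.48 CPM at ZT3 and 16.5, 12.9 and 11.9 CPM at ZT12 under shiftwork, higher at ZT12 where controls were lower, and the schedules differed by -1.64. Tm7sf2, a sterol reductase, was at 6.93, 7.87 and 5.12 CPM and 9.68, 9.49 and 10.9 CPM under shiftwork, with a difference of -1.77. For Slc25a29, a mitochondrial carrier of basic amino acids, it was -2.04, for Rhoj, a small GTPase of endothelial cells, -1.05, and for Fam78b -1.69. These 5 genes were lower at ZT12 in controls and higher at ZT12 under shiftwork, where ZT3 shiftwork libraries lay close to the ZT12 control libraries.

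Ulk2, a kinase that starts autophagy, and Il34, a ligand of the receptor encoded by Csf1r, had the opposite order, higher at ZT12 in controls and lower at ZT12 under shiftwork. Ulk2 was at 164, 147 and 185 CPM at ZT3 and 131, 144 and 135 CPM at ZT12 under shiftwork, with a difference between schedules of 0.776. Il34 was at 22.6, 21.04 and 21.8 CPM and 20.8, 18.9 and 16.5 CPM, with a difference of 1.18. Of the 7 genes Cth alone was called without the 3 ZT3 libraries with other tissue (edgeR, control difference -1.09). There the control differences of Slc25a29 and Rhoj were -0.76 and -0.35, against -1.55 and -0.57 with all libraries.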

How the results depend on the processing

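The count of called genes depended on the tool and on single libraries. The groups of the 514 called genes that were not set aside did not overlap, so their direction under the 23 alternatives was largely fixed by how they were chosen and is no sign of stability. Against 559 calls (443 higher, 71 lower and not set aside), DESeq2 gave 2168 (1170 and 535), no gene filter 320 (274 and 22) and leaving out 2 shiftwork libraries with germ cell or intestine transcripts 2176 (1186 and 510). Without the 3 ZT3 libraries with other tissue 268 genes were higher and 346 lower, and the 6 control libraries alone gave 161 lower genes. Leaving out 1 library gave 1 to 2744 calls, 1 to 1438 higher and 0 to 704 lower. The difference between schedules had 0 calls, but 189 with DESeq2, 7 without the 3 ZT3 libraries, 1 without the 2 shiftwork libraries and 0 to 186 with 1 library left out. The cause of these shifts was not tested.

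The deviations of same-numbered ZT3 and ZT12 controls from their group means correlated with r of 0.0256, -0.0474 and -0.143 across genes. For different-numbered libraries r lay between -0.0961 and 0.192. Deviations within a group sum to 0 and ZT3 replicates 1 and 3 held other tissue, so these values cannot decide whether the libraries were paired. With the replicate number as a block 298 genes were called (267 higher, 24 lower), 279 of them shared with the 559 in direction. Of 112 called genes named in the text, in 2576 combinations of gene and alternative, the call held in 1672 and was lost in 904. Of 966 list medians under the alternatives 41 moved by more than the spread between replicates. Setting genes aside at 1.5 or 4 times gave 1114 and 373 genes in place of 780. Depth limits what can be said below 0.146 CPM.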
